A study of Caenorhabditis elegans with 2 samples.

Results

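The genes described here encode subunits and assembly factors of the mitochondrial respiratory chain, the mitochondrial ATP synthase and the vacuolar proton ATPase of the nematode Caenorhabditis elegans. They were taken by name: every protein-coding gene of the Ensembl WBcel235 annotation whose name starts with nuo-, nduf, cox-, ucr-, sdh, atp-, asb-, asg- or vha-. The rule found 65 of 19973 nuclear protein-coding genes, of which 45 belong to the respiratory chain and ATP synthase and 20 to the vacuolar ATPase. The naming rule itself uses no measured value, but the group was chosen with earlier results of these data known. It does not take every nuclear gene of these complexes, and counts by complex below are over the genes it takes; genes of other names are described apart. Complexes I to IV of the respiratory chain pass electrons to oxygen and pump protons across the inner mitochondrial membrane, except complex II, which passes electrons without pumping. ATP synthase lets the protons flow back and makes ATP. The vacuolar ATPase runs the other way, spending ATP to acidify lysosomes and other compartments, with a V0 sector in the membrane and a V1 sector that hydrolyses ATP.

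Binding was measured by chromatin immunoprecipitation and sequencing (ChIP-seq) of DMD-8, a DM domain transcription factor of the family of Doublesex and MAB-3. The single group was whole L4 larvae, 48.5 hours old, of strain OP775, in 2 biological replicates. The strain carries wgIs775, a stable insertion of a dmd-8 construct tagged with TY1, EGFP and 3xFLAG that also holds wild-type unc-119, in an unc-119(tm4063) mutant background. Worms had been starved as L1 larvae after bleaching, chromatin was sonicated, and the precipitation used an antibody against GFP. The tagged protein came from the transgene and not from the native locus, and chromatin of whole worms mixes all cell types. Binding in few cells and weak binding in many therefore cannot be told apart. No control list was analysed here, and all comparisons are between genes within the lists. Replicate 1 had 629 peaks and replicate 2 had 545 in their thresholded lists. The authors' conservative list, which combines the replicates, held 1537, and the pooled ranked list 95232. Read depth is unknown from peak lists.

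A gene was said to carry a summit when the highest point of a peak lay in its promoter window, which ran from 1000 bp before its annotated 5′ end to 200 bp after it. In the conservative list 10 of the 65 genes carried one (15.4%, exact Clopper-Pearson 95% interval 7.63% to 26.5%), against 509 of 19973 protein-coding genes (2.55%). They are nduf-2.2 and nduf-9 of complex I, cox-5A, cox-5B and cox-6A of complex IV, atp-1 and atp-4 of ATP synthase, and vha-1, vha-2 and vha-12 of the vacuolar ATPase. The share was 15.6% in the respiratory chain and ATP synthase genes (7 of 45, interval 6.49% to 29.5%) and 15% in the vacuolar ATPase genes (3 of 20, interval 3.21% to 37.9%). The intervals cover counting of genes only, and no test was made. They take no account of how the group was chosen, and they count genes that share a peak apart. The peaks number 9, since vha-1 and vha-2 share a single one.

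The DNA under the nduf-2.2 and nduf-9 summits, which were in both replicates' own thresholded lists, is shown first, then that of the vha-12 summit and of the summit shared by vha-1 and vha-2. Each stretch is 100 bases centred on the summit, from the RefSeq WBcel235 (ce11) genome, read 5′ to 3′ on the strand of the gene. They lie at chrIII:6464330-6464429 (plus strand, nduf-2.2), chrIII:3249178-3249277 (minus, nduf-9), chrX:4190654-4190753 (plus, vha-12) and chrIII:9781336-9781435 (plus, vha-1). Capitals mark, for nduf-9, a match to the tRNA B box core at the start, read on the other strand, and a match to the DM site near the end, and for vha-12 a GAGA repeat read on the other strand.
nduf-2.2: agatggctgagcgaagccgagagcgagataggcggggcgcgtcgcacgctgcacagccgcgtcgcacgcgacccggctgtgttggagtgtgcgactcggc
nduf-9: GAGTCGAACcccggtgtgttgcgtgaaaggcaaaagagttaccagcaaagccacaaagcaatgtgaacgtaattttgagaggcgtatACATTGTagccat
vha-12: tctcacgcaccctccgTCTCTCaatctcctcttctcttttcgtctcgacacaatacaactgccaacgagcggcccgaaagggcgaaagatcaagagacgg
vha-1: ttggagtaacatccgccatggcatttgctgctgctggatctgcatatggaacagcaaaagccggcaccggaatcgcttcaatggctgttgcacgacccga

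Complex I takes electrons from NADH. In the conservative list 2 of the 12 complex I genes of the name rule carried a summit. At nduf-2.2, which encodes the 49 kDa subunit, the conservative signal was 166.2, which ranked 182 of 1537. Its ranked-list signal was 77.2 in replicate 1 and 84.3 in replicate 2, and the peak was in both replicates' own lists. The summit lay 842 bp upstream of the 5′ end, inside the noncoding RNA gene T26A5.10, and nearer to dlc-1, a dynein light chain gene, which it preceded by 601 bp. The peak covers III from 6464240 to 6464519. The 100 bases at this summit had 70% GC, the highest of the 9 peaks, against a median of 51% at all conservative summits.

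At nduf-9, which encodes the NDUFA9-type accessory subunit, the conservative signal was 151.9, rank 235. The replicates gave 78.1 in replicate 1 and 75.4 in replicate 2, and both own lists held the peak. Its summit lay 653 bp upstream, inside the microRNA gene mir-4936, and the peak covers III from 3249088 to 3249367. No tRNA, snoRNA or snRNA gene was nearer than 53708 bp. The signals of both complex I summits were above the 90.6 median of the conservative list.

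The other 10 complex I genes had summits in the ranked lists and in no thresholded list. The pooled ranked list keeps weak peaks and gave a summit to 61 of the 65 genes (93.8%), against 13135 of all protein-coding genes (65.8%), so presence in it says little and the highest signal in the window is given instead. It is taken in each list apart, so a gene's values need not be of a single site. At nuo-1, below, the summit lay at -705 bp from the 5′ end in the pooled list, -290 bp in replicate 1 and -699 bp in replicate 2. The highest of the 10 was at nuo-2, which encodes an iron-sulfur protein of the complex, with a pooled signal of 73.1, 43.0 in replicate 1 and 27.6 in replicate 2. Next came nuo-1, the NADH-binding flavoprotein subunit, with 59.9 pooled, 28.0 in replicate 1 and 45.7 in replicate 2, and nuo-5, the 75 kDa subunit, with 59.0 pooled, 26.7 in replicate 1 and 30.2 in replicate 2. These complex I genes were thus above most genes in the pooled list without meeting the threshold of the conservative list. The lowest was nduf-11 with 11.16 pooled, 8.71 in replicate 1 and 7.36 in replicate 2. Of the 12 complex I genes, 11 exceeded the median of 34.5 over all genes with a ranked summit, and their median was 50.4.

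The complex I genes named otherwise did not carry conservative summits. The 19 genes whose names start with ndua-, ndub-, nduc-, nduv- or ndus- gave 0 of 19, with a median ranked signal of 40.5 over the 16 with a pooled ranked summit. Together with the 12 this made 2 of 31. The genes gas-1 and lpd-5 are counted with the other pathway genes below and are not among the 31. The 49 kDa subunit has a close paralogue, gas-1, in which the pooled signal was 22.2 and replicate 1 gave 11.5, with no ranked summit in replicate 2. The highest of the 19 was ndub-10, with 61.5 pooled, 30.8 in replicate 1 and 31.0 in replicate 2.

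Complex II, succinate dehydrogenase, also belongs to the citric acid cycle. None of the 4 genes taken by name carried a summit in any thresholded list, and none exceeded the all-gene median in the pooled ranked list. The highest was sdhd-1, the small cytochrome b anchor subunit, with 31.8 pooled, 15.8 in replicate 1 and 13.1 in replicate 2. The iron-sulfur subunit gene sdhb-1 had 18.1 in the pooled list and no ranked summit in either replicate. The large anchor subunit gene mev-1, which the name rule does not take, gave 27.6 pooled. Complex III, which passes electrons from ubiquinol to cytochrome c, gave 0 of 5 genes in every thresholded list. Its highest gene in the pooled list was ucr-2.3, with 37.4 pooled, 17.8 in replicate 1 and 20.7 in replicate 2. The lowest in the pooled list was ucr-2.2, with 14.3 pooled, 16.2 in replicate 1 and 24.5 in replicate 2. Both belong to the core protein family of the complex, and the order of the complex III genes differed between the lists. In replicate 1 ucr-2.1 was highest, with 34.8, while it had 27.0 pooled and no ranked summit in replicate 2. The catalytic iron-sulfur protein of complex III, isp-1, outside the name rule, had 62.8 pooled, 27.8 in replicate 1 and 38.1 in replicate 2, without a conservative summit.

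In complex IV, cytochrome c oxidase, 3 of the 7 nuclear subunit genes carried a summit, each at a peak of its own, and 0 of the 8 assembly genes did. The highest conservative signal of the 10 genes was at cox-6A, with 204.1 (rank 85). Replicate 1 gave 66.7, below nduf-9 and nduf-2.2, and replicate 2 gave 131.4, the highest of the genes in that list. The ratio of replicate 2 to replicate 1 was 1.97, the highest of the 9 peaks. The summit, 836 bp upstream of the 5′ end, lay inside the small nuclear RNA gene F54D8.7, and the peak covers III from 5080748 to 5081027. Of the 71 overlapping 30-base words in the 100 bases at this summit, 38 occur elsewhere in the genome, up to 21 copies of a word. For the other peaks 0 of 71 did. How reads of such copies were placed is not stated in the labels, and the part of these copies in the signal was not tested. The name F54D8.7 stands for 3 annotated copies of 101 identical bases, 1 on III and 2 on IV, and the copies on IV held 0 conservative summits.

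The cox-5B summit lay 9 bp upstream of the 5′ end, on I from 9788576 to 9788855, with no tRNA, snoRNA or snRNA gene within 37380 bp. Its conservative signal was 113.1 (rank 457), with 55.3 in replicate 1 and 57.8 in replicate 2. The replicates thus lay close together, yet neither own list held the peak. The irreproducible discovery rate (IDR), a measure of how poorly a peak's rank repeats, was 0.0594 in replicate 1's ranked list and 0.760 in replicate 2's, against 0.000943 in the pooled list. Here and below, the IDR in a single replicate's list is not read as agreement between the 2 replicates. At cox-5A the summit lay 294 bp upstream (III, 12905057 to 12905336), with a conservative signal of 69.0, rank 1417, and 40.2 in replicate 1 and 37.9 in replicate 2. It has the lowest conservative signal of the 9 peaks, though not the lowest value in either replicate, and was absent from the optimal list.

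Among the other subunit genes, cox-4 had 64.4 pooled, with 10.6 in replicate 1 and 43.4 in replicate 2. These are highest values in the window and not of a single site: the summit lay at -495 bp from the 5′ end in replicate 1, at 129 bp in replicate 2 and at 180 bp in the pooled list. The cox-6B gene had no ranked summit in its window in any list. A conservative summit of signal 99.4 lay in its body 12075 bp from its 5′ end, at a tRNA gene and also within tmem-132, and it is not counted here. The small subunit gene cox-6C had 44.0 pooled, 17.6 in replicate 1 and 23.3 in replicate 2. The gene cox-7C had 11.6 pooled and 16.6 in replicate 1, with no ranked summit in replicate 2.

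The assembly factors help to build complex IV, some of them by supplying its heme or copper. The heme A synthase gene cox-15 was outside the conservative list but inside the optimal list (signal 84.5, rank 946 of 1556) and replicate 1's own list. Its signal was 57.3 in replicate 1 and 26.9 in replicate 2, and its summit lay 38 bp past the 5′ end, in coding sequence. The IDR was 0.00820 in replicate 1, 0.111 in replicate 2 and 0.0201 in the pooled list. The next highest was cox-11, a copper delivery factor, with 49.7 pooled, 28.4 in replicate 1 and 20.8 in replicate 2. The heme O synthase gene cox-10, which acts before cox-15, had 45.5 pooled, 34.6 in replicate 1 and 32.9 in replicate 2, so that in replicate 2 it was above cox-15. The copper chaperone gene cox-17 had no ranked summit in any list.

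**Figure D1:**
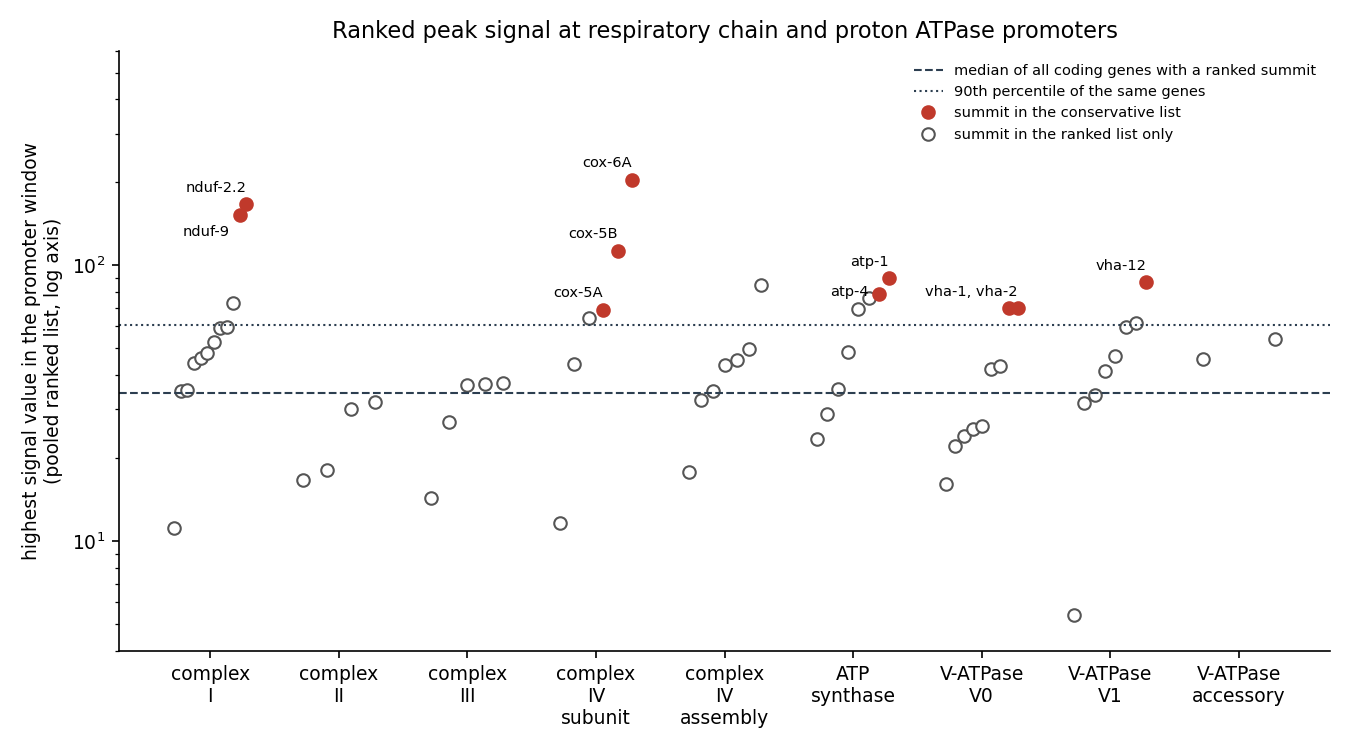
Highest signal value in the promoter window of each of the 61 genes with a summit in the pooled ranked list, by complex, on a log axis; filled points carry a conservative summit. The dashed line is the median (34.5) and the dotted line the 90th percentile (60.7) of all protein-coding genes with a ranked summit. All 10 filled points lie above the dotted line, while complexes II and III have none. The conservative signals are these same pooled values, so the height of the filled points is no separate result.

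ATP synthase carried 2 summits among 9 genes. At atp-1, the catalytic-head alpha subunit, the summit lay 4 bp upstream of the 5′ end (I, 12652133 to 12652412) and 186 bp upstream of mcrs-1. The conservative signal was 89.9, rank 786, with 44.6 in replicate 1 and 43.5 in replicate 2. At atp-4, coupling factor 6, the summit lay 42 bp past the 5′ end, in coding sequence (V, 6426930 to 6427209), with a conservative signal of 78.8, rank 1148. Replicate 1 gave 49.5 and replicate 2 gave 33.8 there, a ratio of 0.683, the lowest of the 9 peaks. That summit also lay in the window of T05H4.11. Neither peak was in a replicate's own list.

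The highest of the remaining ATP synthase genes was atp-3, the oligomycin sensitivity subunit, with 75.8 pooled, 30.2 in replicate 1 and 39.8 in replicate 2. Its pooled signal exceeded that of cox-5A, vha-1 and vha-2, but its pooled IDR was 0.0193, above 0.01, a limit that all 9 conservative peaks met. The subunit d gene atp-5 had 69.2 pooled, 43.0 in replicate 1 and 21.8 in replicate 2. The beta subunit gene atp-2, partner of atp-1 in the head, had 48.6. The subunit b paralogues differed in the replicates: asb-1 had 35.7 pooled, 24.5 in replicate 1 and 11.23 in replicate 2, while asb-2 had 28.8 pooled and 31.1 in replicate 2, with no ranked summit in replicate 1. The gene asg-2 had a ranked summit in replicate 1 only, of 22.4.

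The vacuolar ATPase carried its summits in both sectors. At vha-12, one of the B subunit genes of V1, the summit lay 390 bp upstream (X, 4190564 to 4190843), with a conservative signal of 86.8, rank 873, 49.1 in replicate 1 and 35.4 in replicate 2. The summit shared by vha-1 and vha-2, proteolipid c subunit genes of the membrane ring, had a conservative signal of 69.8, rank 1407, with 38.7 in replicate 1 and 38.9 in replicate 2. It lay 132 bp past the 5′ end of vha-1, in coding sequence, and 778 bp upstream of vha-2 (III, 9781246 to 9781525). Both genes lie on the plus strand, vha-1 from 9781254 to 9781763 and vha-2 from 9782164, so the vha-2 window holds all of vha-1. The nearest gene to the summit is vha-1, and vha-2 is counted through its window only. None of these peaks was in either replicate's own list, and all had a conservative signal below the median of the list.

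The median over the 9 genes of V0 was 26.2, below the all-gene median. The highest V0 gene without a conservative summit was vha-5, an a subunit gene, at 43.2. Replicate 1 gave 24.3 at vha-5, and replicate 2 had no ranked summit there. The gene vha-6, known for the a subunit of the intestinal pump, had 26.2 pooled, 14.5 in replicate 1 and 9.37 in replicate 2. In V1 the catalytic A subunit gene vha-13 was highest without a conservative summit, with 61.7 pooled, 31.8 in replicate 1 and 27.6 in replicate 2. The G subunit gene vha-10 had 59.8 pooled and 33.3 in replicate 1, with no ranked summit in replicate 2. The D subunit gene vha-14 had 5.37, the lowest pooled signal of the 61 genes. The H subunit gene vha-15 had no ranked summit in any list. Of the 2 accessory genes, vha-20 was higher, with 54.02 pooled, 40.0 in replicate 1 and 10.6 in replicate 2.

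**Figure D2:**
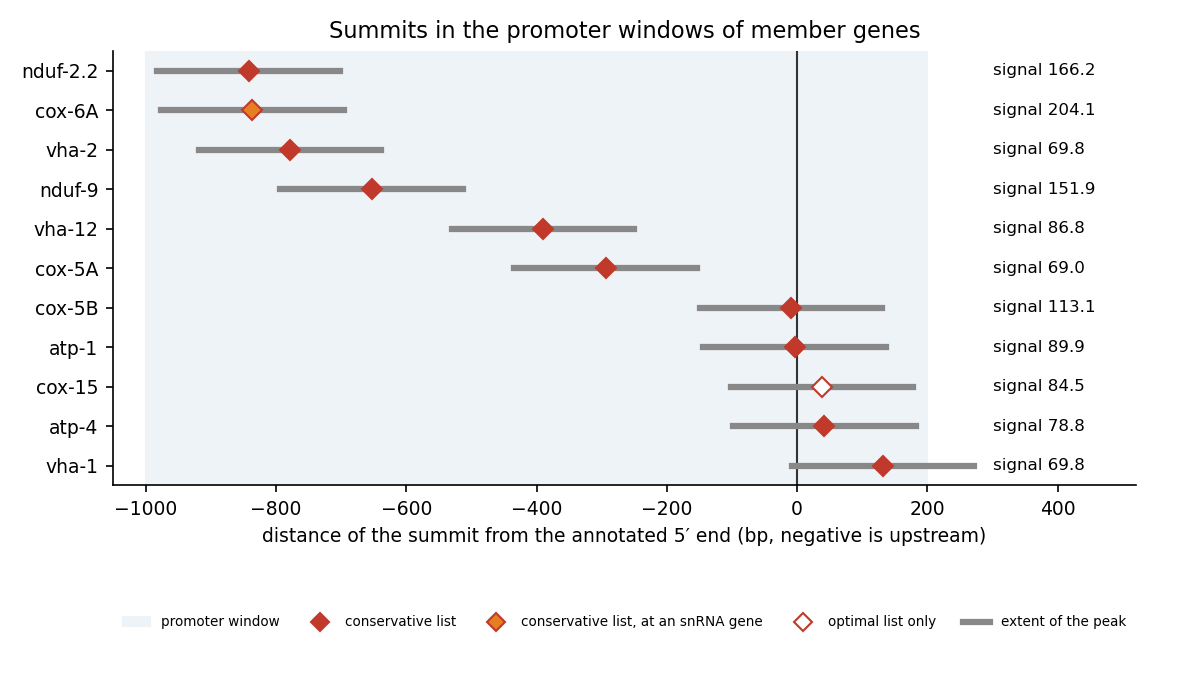
Distance of each summit from the annotated 5′ end in bp (x axis) for the 10 genes of the conservative list and for cox-15 of the optimal list; bars show the extent of the peak and the shaded band the promoter window. The summits range from 842 bp upstream (nduf-2.2) to 132 bp downstream (vha-1), and the summit at cox-6A lies at an snRNA gene.

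In the 10 genes with a conservative summit, the summits were spread across the window. The median distance to the 5′ end was 342 bp for the 10 genes and 397 bp for all 509. Of the 10, 4 had the summit within 200 bp of the 5′ end (40%), against 141 of 509 (27.7%). The summit also lay in the window of another protein-coding gene for 5 of 10 (50%), against 164 of 509 (32.2%). In the pooled ranked list the strongest summit lay within 200 bp of the 5′ end for 26 of 61 genes (42.6%), against 4625 of 13135 (35.2%). The genes often lay in close gene neighbourhoods: 27 of 65 (41.5%) had a divergent gene's 5′ end within 1000 bp upstream, against 17.7% of all. A same-strand gene ended within 500 bp upstream for 20 of 65 (30.8%), against 18.1%. On X lay 8 of 65 (12.3%), against 13.7%. The part of gene spacing in the share with a summit was not tested.

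Small RNA genes of the tRNA, snoRNA and snRNA classes were near 1 of the 9 peaks. Of the 10 genes, 1, cox-6A, had its summit within 200 bp of a tRNA, snoRNA or snRNA gene, against 105 of 509 (20.6%). Without such summits, 9 of the 65 genes carried one (13.8%), against 404 of 19973 (2.02%). MicroRNA and other noncoding RNA genes are not among these classes. Counted with them, the 3 peaks of highest conservative signal, those of cox-6A, nduf-2.2 and nduf-9, all had their summits inside a noncoding RNA gene (an snRNA gene, T26A5.10 and mir-4936). Of the 9 peaks 3 (33.3%) thus lay inside an annotated noncoding RNA gene, piRNA genes counted and pseudogenes not, against 389 of all 1537 conservative peaks (25.3%). Among peaks at or above the median signal it was 3 of 4 (75%), against 302 of 769 (39.3%), a grouping added after the values were seen. These 3 are also the peaks in both replicates' own lists. The part of these genes in the signal was not tested.

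The replicates' own lists held fewer of the genes. In replicate 1's list 4 genes carried a summit (6.15%), against 188 of all genes (0.941%), and in replicate 2's list 3 did (4.62%), against 164 (0.821%). The 3 shared genes are nduf-2.2, nduf-9 and cox-6A, and cox-15 was the fourth in replicate 1. In both lists were 3 of the 10 genes (30%), against 99 of 509 (19.4%). Either list held 3 of 10 (30%), against 217 of 509 (42.6%). The optimal list gave 10 of 65 (15.4%), against 503 (2.52%), with cox-15 in place of cox-5A.

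The ranked lists let weaker signals be compared between replicates. A ranked summit was present in both replicates for 50 genes, in replicate 1 alone for 8, in replicate 2 alone for 3 and in neither for 4. The strongest summits of the window lay within 100 bp of each other in the replicates for 28 of the 50. Spearman's rho of the highest signals was 0.58 across these 50 genes, which share both libraries and the peak caller and are not independent. For the 9 conservative peaks the median ratio of replicate 2 to replicate 1 was 0.976, against 0.920 over 1484 conservative peaks with both values.

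**Figure D3:**
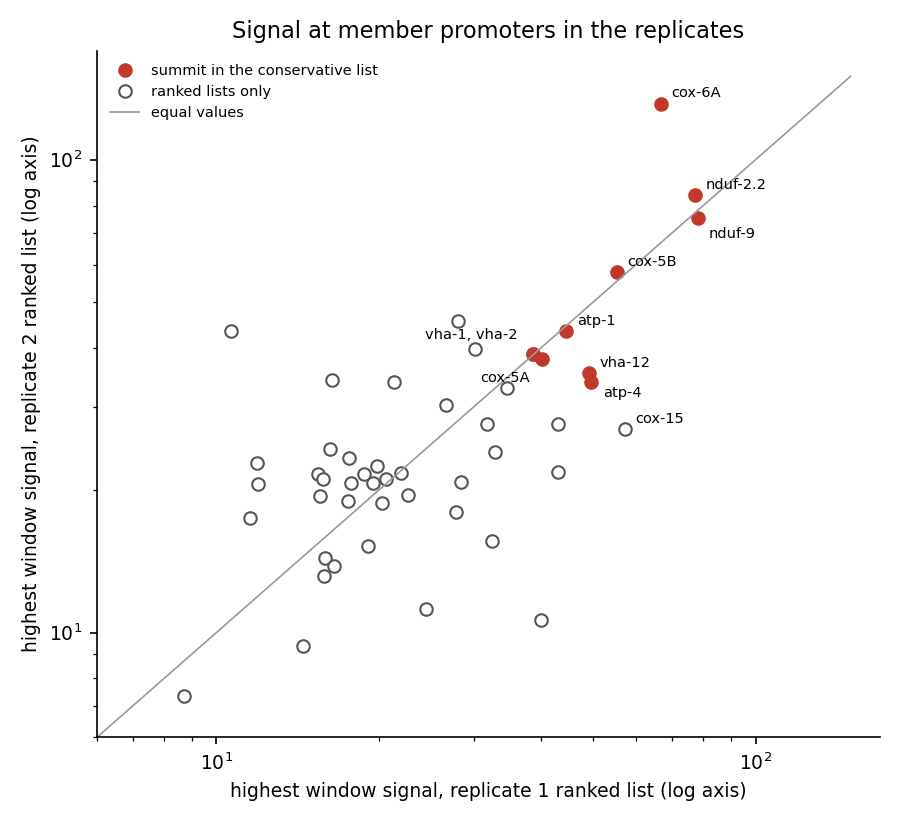
Highest signal in the window in replicate 1 (x axis) and replicate 2 (y axis), both on log axes, for the 50 genes with a ranked summit in both; filled points carry a conservative summit and the line marks equal values. The points of nduf-2.2, nduf-9 and cox-5B lie near the line, cox-6A above it (66.7 and 131.4) and cox-15 below it (57.3 and 26.9).

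Taking the pooled ranked list as a whole, the median highest signal was 43.5 over the 61 genes with a ranked summit and 34.5 over all 13135. Of the 61, 41 were above the all-gene median and 16 were above the 90th percentile of all genes (60.7), among them all 10 genes of the conservative list. The other 6 were cox-15, atp-3, nuo-2, atp-5, cox-4 and vha-13, whose pooled IDR ran from 0.0193 at atp-3 to 0.0810 at atp-5. The conservative signals of the 10 genes are the pooled ranked values of the same peaks. Their place above the 90th percentile is therefore no separate result. The replicates' own ranked lists gave smaller gaps, with medians of 22.6 for the genes and 20.1 for all genes in replicate 1, and 21.8 and 20.2 in replicate 2. A ranked summit was present for 58 of 65 (89.2%) in replicate 1, against 62.5% of all genes, and for 53 (81.5%) in replicate 2, against 59.2%. Within the conservative list the median signal was 88.3 for the 10 genes and 91.2 for all 509.

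Further oxidative phosphorylation and proton pump genes, from a chosen list of names, and the neighbouring mitochondrial groups were counted in the same way. The chosen list does not hold every remaining gene of these complexes. The 22 other pathway genes, which include cytochrome c, ubiquinone synthesis enzymes, isp-1, mev-1 and the V0 a subunit gene unc-32, gave 0 of 22 in the conservative list. Highest among them were isp-1, coq-8 with 57.8 and the cytochrome c gene cyc-2.1 with 55.9. With the 19 complex I genes of other names this made 0 of 41, for which the upper end of the exact 95% interval is 8.60%. Adding them to the 65 gave 10 of 106 (9.43%, interval 4.62% to 16.7%), against 2.55% of all genes.

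The mitochondrial ribosome gave 3 of 70 (4.29%), protein import 0 of 13, ATP/ADP carriers 0 of 4 and the citric acid cycle 2 of 17 (11.8%) in the conservative list. The citric acid cycle list also holds the pyruvate dehydrogenase genes pdha-1 and pdhb-1. The optimal list gave 1 of 70, 1 of 13, 0 of 4 and 1 of 17 in the same order of groups. The 5 genes are named here after their values were seen. In the ribosome they were mrpl-23, with a conservative signal of 228.2 at a summit 61 bp from a small RNA gene, mrps-30 with 75.2 and mrpl-32 with 71.2. The mrpl-23 summit lay 1000 bp upstream, at the outer edge of the window. The highest values inside the window there were 97.5 in replicate 1 and 21.6 in replicate 2. A replicate's summit just outside the window is not counted, so these values may be of different sites. In the citric acid cycle they were sucl-2 with 91.1 and sucl-1 with 82.9, subunit genes of succinyl-CoA synthetase.

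**Figure D4:**
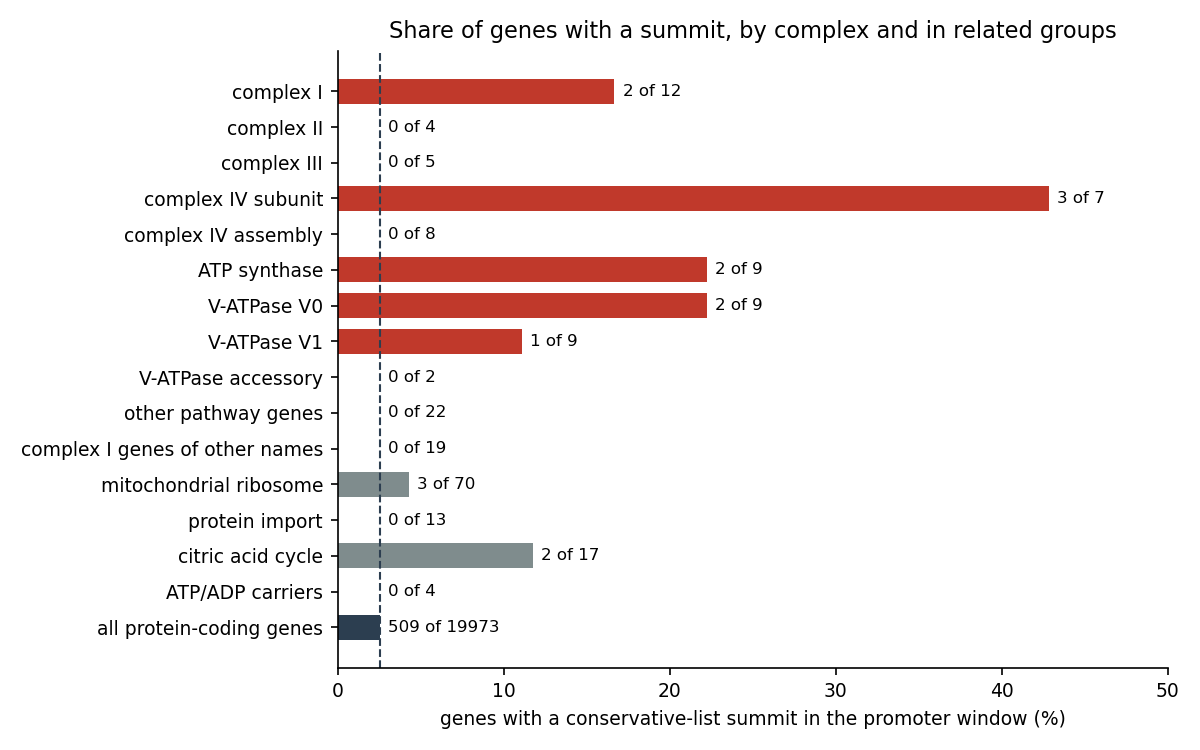
Percent of genes with a conservative summit in the promoter window, for each complex (red), related groups (grey) and all protein-coding genes (dark), with the counts beside the bars. The dashed line is the share of all genes, 2.55%; the complex IV subunits have the longest bar (3 of 7), and the groups have 2 to 70 genes.

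Short sequence motifs were searched on both strands of all promoter windows, as a description. The DM site (ACAATGT or ACATTGT) was in the windows of 21.5% of the 65 genes and 20.5% of all. The KLF/SP site (CCGCCC) was in 23.1%, against 19.2%, and the GAGA repeat (GAGAGA) in 53.8%, against 50.9%. The E2F site (GCGCGAA or GCGGGAA) was in 9.23%, against 16.9%, the E-box CACGTG in 12.3%, against 18.4%, and the GATA site TGATAA in 61.5%, against 72.0%. The E-box CAGCTG was in 20%, against 20.9%, and the TATA box (TATAAA) in 78.5%, against 80.0%. The B box core of tRNA promoters, GTTCGANNC, was in 4.62%, against 7.58%. Windows had a median GC content of 36.5% in the 65 genes, against 35.0% in all, and 39.4% in the 10 with a summit, against 38.5% in all 509.

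In the 100 bases at the summits, the DM site was found at 1 of 9 peaks, that of nduf-9, against 0.911% of all conservative summits. The B box core was at the same summit, against 11.6% of all. The KLF/SP site was at the atp-1 summit, against 6.96%, and the GAGA repeat at the vha-12 summit, against 12.2%. The E2F, E-box, GATA and TATA motifs were at 0 of 9. A match is a run of letters and not a measured binding site.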

How the data were processed

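The authors' deposited peak lists on assembly ce11 were used: thresholded lists of each replicate, the conservative and optimal lists of the combined replicates, and ranked lists of each replicate and of the pool. Per the labels, peaks rest on a GFP ChIP-seq of whole worms with 2 biological replicates. Aligner and peak caller are not named in the labels, and neither is any version. Each peak's signal value is the authors' own (deposited, not scaled between lists) and was compared only within a list, except side by side for the replicates. The ranked lists' deposited score, −log10 of the IDR, was turned back to an IDR. Summit offsets are the authors' deposited values, counted from the peak start. The 8 per-replicate columns of the pooled ranked list were not used.

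Genes came from Ensembl release 115 and sequence from RefSeq WBcel235. The sequence at the cox-6A summit is not reported here. Peak ends lay inside the chromosome lengths, and positions are 1-based. Every share is a count over genes beside the share of all protein-coding genes. No test was made, since there is 1 group of 2 replicates. Intervals are exact 95% intervals and cover counting of genes only. A gene's ranked value is its highest signal in the window. Alternatives were other lists, IDR limits, windows, 5′ ends, nearest-gene assignment and small RNA distances. Named were genes with a summit in a thresholded list, the highest other gene of each complex and genes with no ranked summit. The lowest genes, those compared with a named gene, and other genes above the 90th percentile were named after their values were seen. Some further genes, among them nuo-1, nuo-5, vha-10, cox-6C and vha-6, were named outside these rules. The members and lists were chosen with earlier results of these data known, and the complex I genes of other names were added once the annotation had been read. The window assignment was checked on simulated data. Software was matplotlib 3.10.9, scipy 1.17.1, pandas 2.3.3, numpy 2.4.6 and Python 3.11.15.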

Additional observations from a re-analysis of the deposited data

How the results depend on the processing

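The count of 10 genes (2.55% of all genes) was 10 in the optimal list (2.52%; 9 of the 10 genes, with cox-15 in place of cox-5A) and 10 with any transcript's 5′ end (2.92%). An IDR limit of 0.01 on the pooled ranked list also gave 10 (2.57%), but these hold the same 9 peaks as the conservative list and are no separate check. It was 13 with 2000 bp upstream (4.12%), 9 without small RNA summits (2.02%) and 8 with the nearest gene only (2.01%). It was 6 with 500 bp upstream (1.62%), which leaves out cox-6A, nduf-2.2, nduf-9 and vha-2, and 4 for peaks at or above the median signal (1.31%). Each replicate's list alone gave 3 to 4 (0.821% and 0.941%). Percentages in brackets are shares of all protein-coding genes under the same setting. For the respiratory chain and ATP synthase the count of 7 was 4 with 500 bp, 4 at or above the median signal and 3 to 4 by replicate. For the vacuolar ATPase the count of 3 was 0 at or above the median signal and 0 by replicate. Genes with a summit near small RNA genes numbered 1, 0 with 500 bp upstream and 3 with 2000 bp. The matching shares of all genes are not given here for the 500 bp and 2000 bp windows, so these counts have no background. The median signal of 43.5 was 37.0 with 500 bp upstream (30.5 over all genes), 50.03 with 2000 bp (41.0) and 41.9 with genes without a summit at 0 (24.1). By replicate it was 21.8 to 22.6, on each list's own scale. No paired analysis was possible because there is a single group. Read depth, the control and binding per cell type limit all values.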
